A study of Mus musculus with 36 samples.

Results

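The p53 response and DNA repair genes are a list of 37 genes, set by symbol and function, with no rule on their values but with earlier results of these data known: p53 itself, its inhibitor Mdm2, targets that p53 switches on, the kinases and adaptors that signal DNA damage, and enzymes of 4 repair routes (nucleotide excision, homologous recombination, end joining, and base excision with single-strand break repair). All 37 symbols were found among the 49315 gene entries of the deposited tables. The series title names gravity and radiation conditions, and this list covers the genes usually read for radiation damage. Expression was measured by sequencing of polyadenylated RNA from proliferating C2C12 myoblasts, an established line of mouse muscle precursor cells that can divide or fuse into muscle fibres. There were 18 libraries in 6 groups of 3: in space without gravity, in space under gravity, or on land, with 1 group without and 1 with nanoceria in each. Nanoceria are cerium oxide nanoparticles, here coated with serum and given at 100 µg/ml in a medium reservoir, and the units without them held medium alone. All cells were grown on coverslips in sealed experiment units and preserved with RNAlater, the space units on the space station with the last fluid exchanges on day 9 after launch. The land units were run afterwards in the same hardware, so space and the separate run cannot be told apart. The labels do not say how the space units with gravity received it, and within the cultures fewer expressing cells and less RNA per cell cannot be told apart.

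p53 is a transcription factor that Mdm2 keeps low by marking it for breakdown, and Mdm2 is itself a p53 target, so the pair form a feedback loop. After DNA damage the kinases ATM and ATR, with their effectors CHK2 and CHK1, stabilise p53, which then induces genes that stop the cell cycle, such as Cdkn1a, and genes that promote death, such as Bax and Bbc3. Repair genes act in parallel: BRCA1 and BRCA2 guide repair from a sister copy, the Ku proteins and DNA-PKcs rejoin broken ends, and OGG1 and PARP1 deal with oxidised bases and nicks. In muscle precursors Cdkn1a also marks exit from the cell cycle during differentiation, and many genes of sister-copy repair follow DNA replication.

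The smallest library, replicate 3 of space with gravity and nanoceria, held 23858 counts, against 2986628 to 11378178 in the other 17. It had no count for 22 of the 37 genes and 3 or more counts for 7 of them, and 3 counts there correspond to 35.7 CPM, so it is kept in every fit but left out of the level summaries below. Where 3 values are printed for that group, the last is this library, and a value under 35.7 CPM there rests on fewer than 3 counts. CPM scales each count to a common library size, after TMM scaling (a trimmed mean of log ratios between libraries). The 6 most abundant genes of the libraries, chosen after their counts were seen, took 49.6% to 76.3% of counts on land, 40.7% to 70.3% in space without gravity and 24.5% to 54.4% in space with gravity (17 libraries). Of the 7 myoblast markers, Myf5, Des and Vim were counted in all 18 libraries and Chrna1 in 17. Myod1, Cdh15 and Pax7 had 99, 122 and 52 counts in all, in 10, 15 and 14 libraries. Of the 10 non-muscle markers, Cd68 had 1770 counts, Pparg 193 and Bglap 153, each in 17 libraries, and the others at most 31. Markers of differentiated muscle summed to 110.0 CPM in land replicate 1 without nanoceria and to at most 18.9 CPM in the other 16 libraries. All 6 tested myoblast markers had negative log2 fold changes against land, with a median of -0.70 in space with gravity and -0.52 in space without gravity, and so had the 3 tested non-muscle markers (medians -0.60 and -0.74). Vim in space with gravity was the myoblast marker that passed the test described below. How far these shifts bear on the member results was not tested.

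The p53 side of the list was far more abundant than the repair side. Per kilobase of exon, with medians over 17 libraries, Gadd45a stood at 274, Btg2 at 139.6, Mdm2 at 113, Cdkn1a at 83.7 and Ccng1 at 66.1 CPM per kb. These 5 genes, all of them p53 targets, held 74.3% of the counts of the list. Of the 18 genes made up of p53, Mdm2 and the targets in arrest, growth, death and survival, 10 had a median above 10 CPM per kb. None of the 19 genes of damage signalling and repair did: their medians ran from 0.0471 for Ddb2 to 4.47 for Xrcc6, and 13 of them were under 1. Trp53 itself was at 7.34 CPM per kb.

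**Figure D1:**
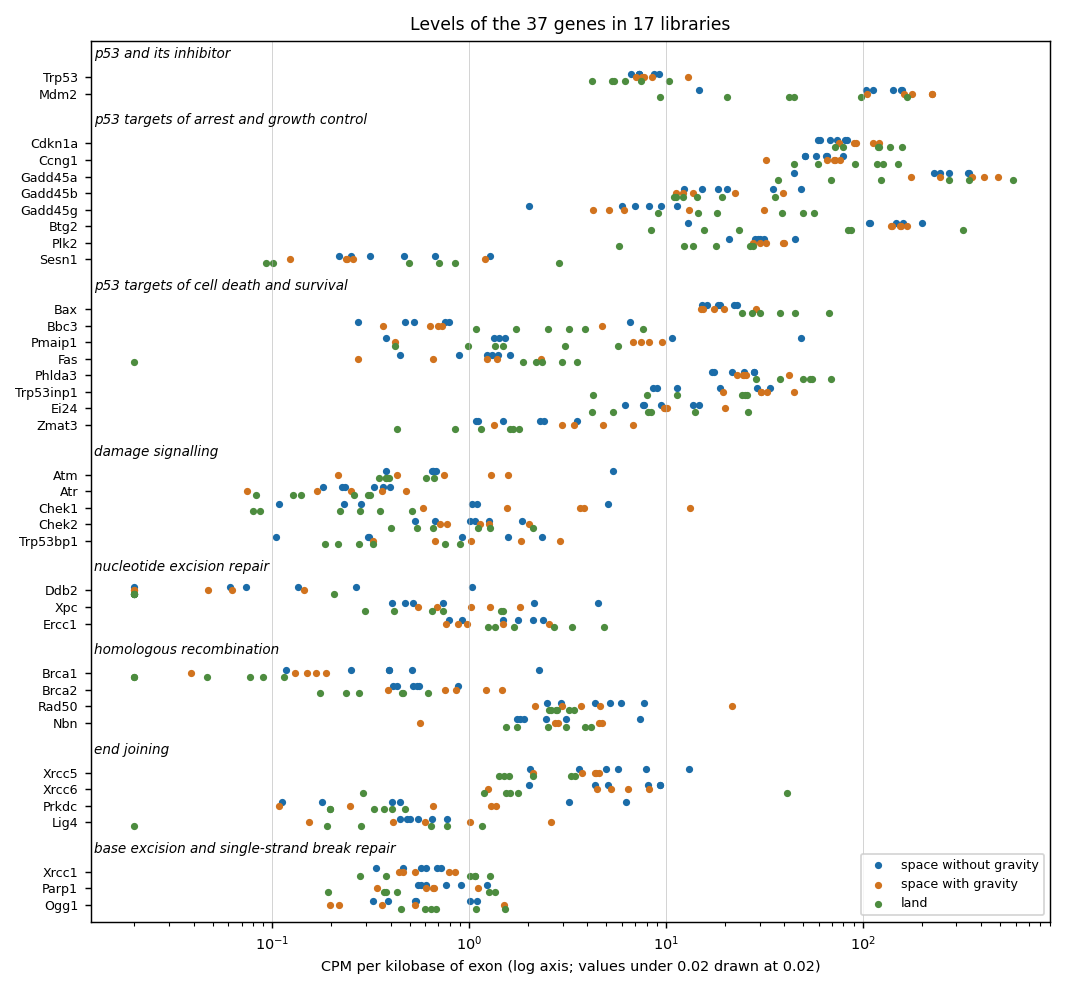
Level of each of the 37 genes in 17 libraries, by group of function, in CPM per kilobase of exon on a log axis; each point is 1 library, coloured by regime, and the smallest library is left out. Gadd45a, Btg2, Mdm2, Cdkn1a and Ccng1 lie at the right, with medians from 66.1 to 274, and the repair genes at the left, the highest median being 4.47 for Xrcc6.

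The spread between libraries differed by gene. Among the 17 libraries, Cdkn1a ran from 132 to 353 CPM, a 2.67-fold range, and Trp53 over a 3.08-fold range. Btg2 covered a 38.2-fold range, Mdm2 a 24.3-fold one and Gadd45a a 15.5-fold one. The 4 libraries with the lowest Gadd45a were also the 4 with the lowest Btg2: replicates 1 and 2 of land without nanoceria, replicate 3 of land with nanoceria, and replicate 2 of space without gravity and without nanoceria. The 3 lowest libraries for Mdm2 were among these 4. In those 4 libraries the 6 dominant genes held 64.1% to 76.3% of counts, but replicate 1 of land with nanoceria, with 73.3%, had the highest Btg2 of the 17, at 885 CPM.

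Space with gravity against land, averaged over both nanoceria levels, was tested with edgeR's quasi-likelihood test and Benjamini-Hochberg adjustment over the 11558 genes that passed the filter on low counts, which 36 of the 37 genes did; Ddb2 did not. With adjusted p under 0.05, 1 of the 36 passed, against 1613 of all genes tested (14%; 7.22% higher and 6.74% lower). The gene was Chek1, which rose. Space without gravity against land gave 2 of 36, Brca1 higher and Gadd45g lower, against 5.25% of all genes (2.81% higher and 2.44% lower). At an unadjusted p under 0.05 the members counted 9 of 36 in each comparison, against 31.9% and 24.7% of all genes. In each, 6 members were higher and 3 lower, against 15.8% and 16.1% of all genes in space with gravity and 12.3% and 12.5% without it. The members' share was under the background in space with gravity and near it in space without gravity, by either count. The p-values measure the spread between experiment units of 1 cell line. Both comparisons use the same land libraries, so their values are set side by side and not as separate evidence.

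**Figure D2:**
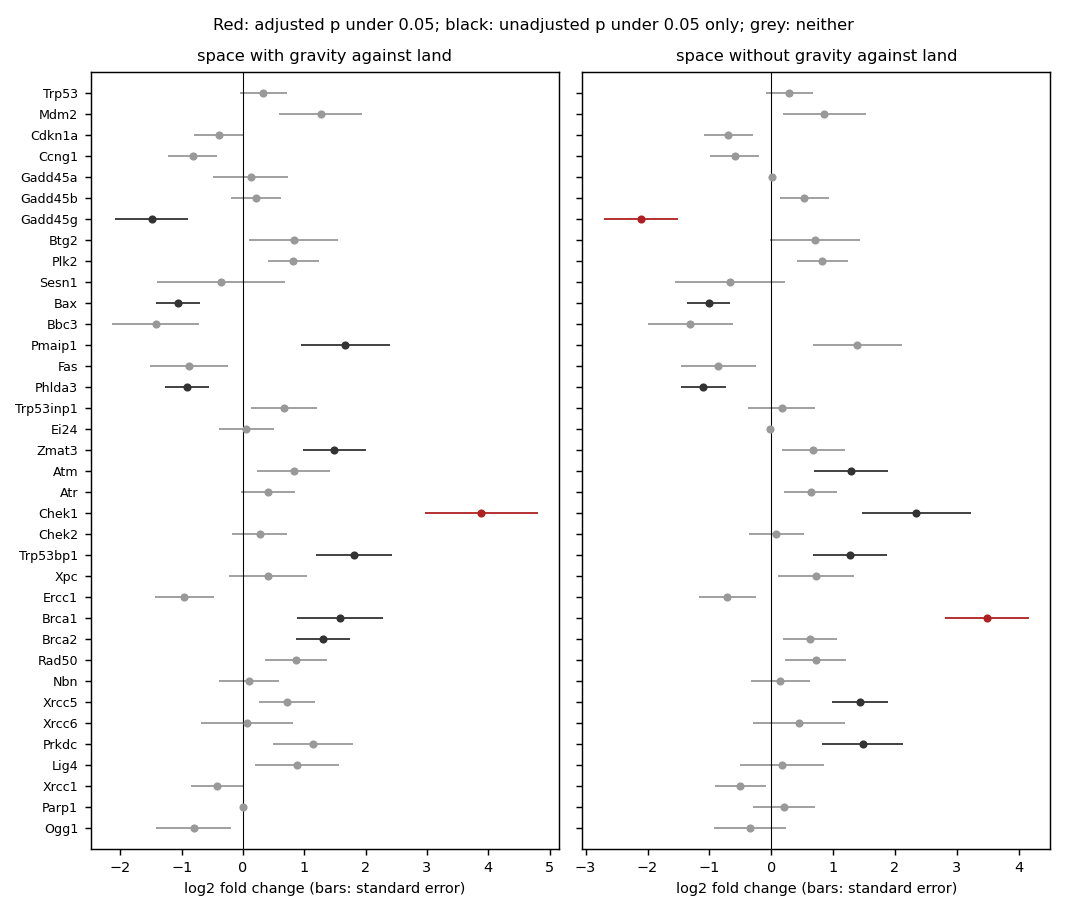
Log2 fold change of the 36 tested genes in space with gravity against land (left) and space without gravity against land (right), with standard errors of the fit as bars; no bar is drawn for values within 0.05 of 0. Chek1 at 3.89 passed on the left, and Brca1 at 3.48 and Gadd45g at -2.11 on the right; both panels share the land libraries.

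Trp53 (GRCm38 chromosome 11, 69580359 to 69591873) differed between regimes by less than the standard error of the fit. Without nanoceria it was at 29.5, 35.2 and 29.6 CPM in space without gravity, 28.5, 30.7 and 34.3 in space with gravity and 22.2, 17.1 and 21.7 on land, in replicate order. With nanoceria, Trp53 was at 37.6, 29.7 and 27.1 CPM in space without gravity, 31.3, 52.8 and 0 in space with gravity and 41.8, 30.3 and 25.1 on land. The 3 land units without nanoceria were the lowest of the 17 libraries, and 2 of the 3 land units with nanoceria lay among the space units. The log2 fold changes were 0.33 ± 0.38 in space with gravity (adjusted p = 0.584) and 0.29 ± 0.38 in space without gravity (adjusted p = 0.67).

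Mdm2 (chromosome 10, 117688888 to 117710758, minus strand), the ubiquitin ligase that removes p53, stood higher in space with gravity, by less than the test required. In units without nanoceria it was at 798, 74.8 and 525 CPM in space without gravity, at 908, 819 and 1146 in space with gravity and at 104, 227 and 851 on land. With nanoceria, Mdm2 was at 573, 719.8 and 802 CPM in space without gravity, 1139.8, 531 and 119 in space with gravity and 214, 497 and 47.2 on land. All 5 larger libraries of space with gravity were at 531 CPM or more, and on land 1 of 6 was. All 6 libraries of space without gravity fell within the land range. The log2 fold change was 1.27 ± 0.68 in space with gravity (adjusted p = 0.208) and 0.85 ± 0.67 in space without gravity (adjusted p = 0.451). The share of the 6 dominant genes was lower in space with gravity. With that share as a covariate, the Mdm2 value there was -0.08. That fit called 1 of 11558 genes, and the part of the share in the Mdm2 difference was not tested.

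Cdkn1a (chromosome 17, 29090979 to 29100722), which encodes the cell cycle inhibitor p21, did not stand higher in space. Levels without nanoceria were 186, 136 and 132 CPM in space without gravity, 169, 202 and 206 in space with gravity and 267, 308 and 177 on land. With nanoceria, Cdkn1a was at 151, 180.4 and 165 CPM in space without gravity, 271, 251 and 47.7 in space with gravity and 268, 353 and 162 on land. The 6 libraries of space without gravity lay close together, at 158 ± 22.5 CPM (SD, n = 6), against 256 ± 74 CPM (SD, n = 6) on land, with ranges that overlapped. The log2 fold changes were -0.69 ± 0.40 in space without gravity (adjusted p = 0.29) and -0.40 ± 0.40 in space with gravity (adjusted p = 0.518). DESeq2 called the first of these lower, with an adjusted p of 0.0335. The same test called 1016 of 11558 genes lower and 508 higher in that comparison.

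The 3 Gadd45 genes encode small stress proteins that bind p21, PCNA and kinases of the MAP kinase pathways. All 3 are counted here among the p53 targets of arrest and growth control, and Gadd45a is the best known target of them. Gadd45a (chromosome 6, 67035096 to 67037457) was at 437, 79.2 and 485 CPM in space without gravity, 726, 636 and 855 in space with gravity and 65.9, 219.9 and 1024 on land without nanoceria. In units with nanoceria Gadd45a was at 406, 603 and 616 CPM in space without gravity, 434, 309 and 95.3 in space with gravity and 615, 483 and 122 on land. Its highest and its lowest library were both land units without nanoceria. Log2 fold changes against land were 0.12 ± 0.62 and 0.01 ± 0.61 for space with and without gravity, and both changed sign with DESeq2 size factors (-0.16 and -0.22). Without its highest library, land replicate 3 without nanoceria, the values were 0.95 and 0.84, and without replicate 1 of that group -0.11 and -0.22. With 1 library left out in turn, the sign changed in 4 and 8 of 18 fits.

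Gadd45b (chromosome 10, 80930091 to 80932204) was at 15.6, 25.8 and 23.3 CPM in space without gravity, 28.6, 15.6 and 14.3 in space with gravity and 13.9, 14.3 and 15.4 on land in units without nanoceria. In units with nanoceria Gadd45b was at 44.4, 61.3 and 19.3 CPM in space without gravity, 17.3, 49.9 and 11.9 in space with gravity and 24.4, 18.2 and 45.6 on land. The 3 land units without nanoceria agreed most closely of the 6 groups. Against land its log2 fold changes were 0.21 ± 0.40 and 0.54 ± 0.40 in space with and without gravity (adjusted p = 0.755 and 0.423), and the first changed sign with DESeq2 size factors (-0.14).

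Gadd45g (chromosome 13, 51846678 to 51848468) fell in space without gravity. It was at 7.02, 13.4 and 9.62 CPM there, at 7.22, 6.02 and 15.3 in space with gravity and at 21.5, 10.7 and 66.7 on land in units without nanoceria. In units with nanoceria Gadd45g was at 8.15, 11.1 and 2.37 CPM in space without gravity, 4.99, 37.1 and 0 in space with gravity and 17, 58.7 and 45.6 on land. The mean was 8.62 ± 3.8 CPM (SD, n = 6) in space without gravity and 36.7 ± 23.5 CPM (SD, n = 6) on land. The lowest land library lay inside the range of space without gravity. The log2 fold change was -2.11 ± 0.60 (adjusted p = 0.0498), and -1.49 ± 0.60 in space with gravity (adjusted p = 0.098). The first call rests at the threshold: the adjusted p ranged from 0.037 to 0.123 when 1 library was left out, and 15 of those 18 fits missed it. In space with gravity, Gadd45g was called lower with DESeq2 size factors and with the DESeq2 test. These called 1558 and 1867 of 11558 genes lower.

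Other targets in arrest and growth control, named after their values were seen, had values on both sides of 0. Ccng1, a cyclin that recruits phosphatase to Mdm2, had a lowest, median and highest level of 178, 216 and 279 CPM in space without gravity, 113, 251 and 271 in space with gravity and 157, 369.7 and 529 on land. Its highest library was land replicate 1 without nanoceria, the one with differentiated muscle markers, and the log2 fold change in space with gravity was -0.82 ± 0.40 (adjusted p = 0.167), or -0.75 without that library. DESeq2 size factors, the DESeq2 test and a filter of at least 50 mean counts called Ccng1 lower there. These fits called 1558 of 11558, 1867 of 11558 and 701 of 5850 genes lower. Plk2, a kinase of the polo family, was at 58.6, 83.5 and 127 CPM in space without gravity, 78.1, 90.7 and 112 with it and 16.3, 44.5 and 78.1 on land. The 5 larger libraries of space with gravity all lay above the 6 land libraries for Chek1 and, narrowly, for Plk2, which happened for 4.59% of all genes in that direction; with the smallest library included it happened for none of the 36, against 0.969%. No member had all libraries of space with gravity below land, against 2.82% of all genes, or 3.24% without the smallest library. Plk2 differed by 0.82 ± 0.42 (adjusted p = 0.186) and 0.83 ± 0.41 (adjusted p = 0.225) in space with and without gravity. Btg2, a brake on the cell cycle, had log2 fold changes of 0.83 ± 0.73 and 0.70 ± 0.72, neither past the threshold. Sesn1, which restrains growth signalling, had 1 to 75 counts in the 17 larger libraries, and was at -0.36 ± 1.04 and -0.67 ± 0.89.

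Of the 8 targets in cell death and survival, none passed the test against land in either regime. Bax, which opens the mitochondrial membrane, and Phlda3, which blocks AKT, were the ones nearest to it on the lower side. Bax was at 29.9, 36.2 and 25.5 CPM in space without gravity, 24.3, 27.8 and 31.3 in space with gravity and 107, 71.6 and 38.4 on land in units without nanoceria. In units with nanoceria Bax was at 24, 34.9 and 28.9 CPM in space without gravity, 23.8, 45.4 and 11.9 in space with gravity and 43.3, 60.1 and 47.5 on land. Every library of space without gravity was below every land library for both Bax and Phlda3, which happened for 1.68% of all genes in that direction. The highest value there and the lowest land value were 36.2 and 38.4 CPM for Bax, and 44.0 and 44.7 CPM for Phlda3. Bax differed by -1.06 ± 0.35 in space with gravity (adjusted p = 0.0513) and by -1.01 ± 0.35 in space without gravity (adjusted p = 0.0847).

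Phlda3, chosen after its values were seen, was at 33.9, 44 and 27.3 CPM in space without gravity, 38.7, 35.8 and 40.0 in space with gravity and 107, 86.4 and 44.7 on land in units without nanoceria. In units with nanoceria Phlda3 was at 26.8, 43.8 and 38.9 CPM in space without gravity, 39.1, 65.8 and 11.9 in space with gravity and 59.6, 84.1 and 78.1 on land. It differed by -0.92 ± 0.36 and -1.10 ± 0.36 (adjusted p = 0.0933 and 0.0746) in space with and without gravity. With DESeq2 size factors in place of TMM both genes passed the threshold as lower in both regimes. With the dominant share as a covariate, Bax was at -0.09 (adjusted p = 0.99) and Phlda3 at 0.10 (adjusted p = 0.986) in space with gravity, and at -0.57 and -0.66 in space without gravity. All 6 tested myoblast markers also had negative values in both comparisons, and their part in these differences was not tested. Both were highest in land replicate 1 without nanoceria, where the differentiated muscle markers summed to 110.0 CPM. Without that library, Bax differed by -0.85 and -0.81 and Phlda3 by -0.76 and -0.96 in space with and without gravity.

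The other death and survival targets split. Zmat3, an RNA-binding growth suppressor, had a log2 fold change of 1.49 ± 0.52 in space with gravity (adjusted p = 0.06) and 0.68 ± 0.51 in space without. Pmaip1, which encodes the BCL-2 antagonist NOXA, was at 1.67 ± 0.73 and 1.39 ± 0.72, and ran from 1.00 to 128 CPM across 17 libraries. Bbc3, which encodes PUMA, was at -1.42 ± 0.71 and -1.31 ± 0.69, and the death receptor gene Fas at -0.88 ± 0.64 and -0.86 ± 0.61. Trp53inp1, an autophagy and death cofactor of p53, and Ei24 stayed within -0.02 to 0.67. So NOXA and PUMA, which both neutralise BCL-2 survival proteins, had opposite signs in both comparisons, with adjusted p from 0.126 to 0.25.

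**Figure D3:**
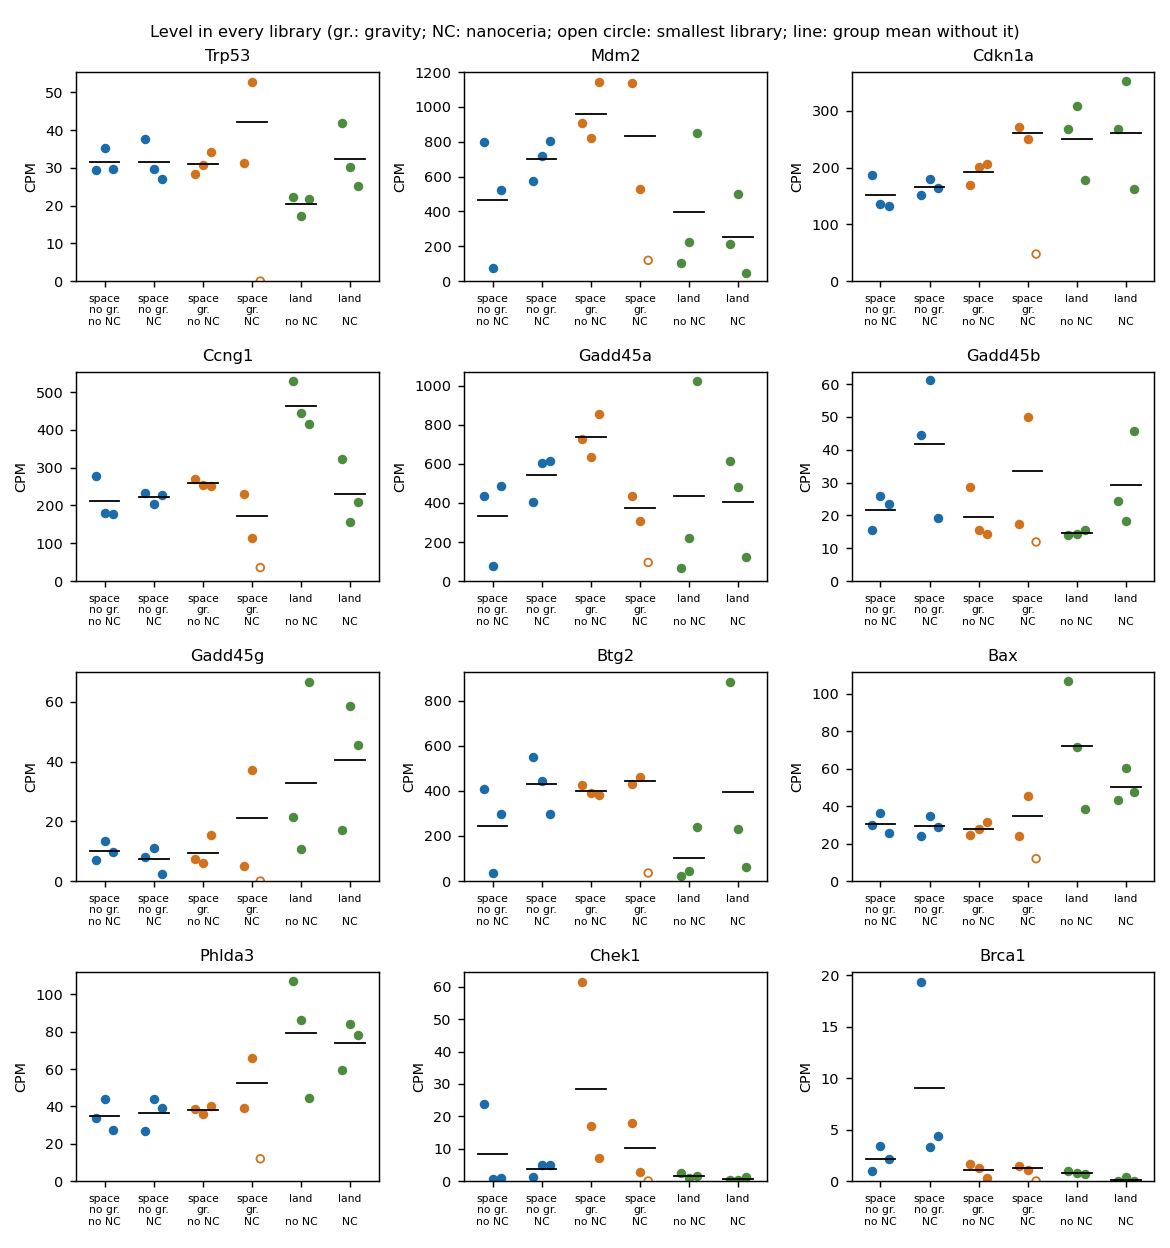
CPM of 12 genes in every library, on linear axes from 0; points are libraries, lines are group means over the libraries other than the smallest, and the open circle is that smallest library (space with gravity, nanoceria, replicate 3). Bax and Phlda3 in the 6 libraries of space without gravity lie under all 6 land libraries, and the Chek1 and Brca1 means are carried by 1 or a few high libraries.

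The start regions of Mdm2, Cdkn1a and Bax are shown as those of 3 targets with letters of the p53 element. Whether p53 acts through these letters was not tested. Each is the 250 bases before a RefSeq start (GRCm38.p6), 5′ to 3′ on the gene's strand, with matches to the p53 element consensus (1 unit of its repeated motif) in capitals. They lie at chr10:117710759-117711008 (minus strand), chr17:29090729-29090978 (plus strand, the more upstream of the RefSeq starts of Cdkn1a) and chr7:45466899-45467148 (minus strand).
Mdm2: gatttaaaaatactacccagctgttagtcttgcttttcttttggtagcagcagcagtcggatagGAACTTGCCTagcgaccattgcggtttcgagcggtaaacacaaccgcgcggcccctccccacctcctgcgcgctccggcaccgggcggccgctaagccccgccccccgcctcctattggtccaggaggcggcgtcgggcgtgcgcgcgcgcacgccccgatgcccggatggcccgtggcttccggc
Cdkn1a: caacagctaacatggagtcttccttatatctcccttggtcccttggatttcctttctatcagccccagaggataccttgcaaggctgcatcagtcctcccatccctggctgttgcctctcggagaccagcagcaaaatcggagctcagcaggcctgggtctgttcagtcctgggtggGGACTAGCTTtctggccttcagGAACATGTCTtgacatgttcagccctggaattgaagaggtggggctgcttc
Bax: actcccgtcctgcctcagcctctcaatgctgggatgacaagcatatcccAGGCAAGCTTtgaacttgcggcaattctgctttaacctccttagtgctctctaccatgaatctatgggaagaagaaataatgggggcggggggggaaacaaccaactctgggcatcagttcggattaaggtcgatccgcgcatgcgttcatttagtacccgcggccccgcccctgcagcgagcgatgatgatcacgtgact

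RefSeq start regions of 300 bases, 250 before and 50 after the start, were at hand for 29 of the 37 genes. This consensus, searched on both strands, was matched in 8 of these 29 genes (27.6%) and in 9.55% of 27025 genes. The 8 were Trp53 (GGACTTGCCC, first base at -75), Mdm2 (GAACTTGCCT, -186), Cdkn1a (GGACTAGCTT, -73, and GAACATGTCT, -51), Ccng1 (GGGCAAGCCT, -185), Gadd45a (GGGCTAGCCC, -40), Bax (AGGCAAGCTT, -201), Ei24 (GGGCATGCCC, -10) and Sesn1 (AAGCTTGTTT, -173). Genes with several start regions counted if any matched, and another region of Cdkn1a and of Sesn1 held no match. The 8 matched genes had log2 fold changes from -1.06 for Bax to 1.27 for Mdm2 in space with gravity, and a link between letters and values was not tested. The E2F-type letters TTTCCCGC, TTTCGCGC, TTTGCCGC or TTTGGCGC, either strand, were in Chek2, Brca2 and Xrcc6 (2.60% of all genes). The CREB-type letters TGACGTCA were in Btg2, Plk2 and Brca2 (2.03% of all genes). The windows of Chek1, Brca1 and Gadd45g, the genes that passed a test, held none of these 3 motifs; a match is a run of letters and no match says nothing of the factor. Zmat3, Trp53inp1, Pmaip1, Ddb2, Xpc, Rad50, Nbn and Prkdc were not among the 29.

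Damage signalling held the gene that rose in space with gravity. Chek1 (chromosome 9, 36708482 to 36727065, minus strand) encodes CHK1, the kinase that ATR switches on at stalled replication forks. Its raw counts there were 955, 197 and 44 without and 225, 17 and 0 with nanoceria, against 17, 4 and 5 and 1, 2 and 4 on land. In CPM these were 61.6, 16.9 and 7.25 and 17.8, 2.71 and 0 against 2.39, 1.02 and 1.64 and 0.37, 0.401 and 1.3. The land libraries had at most 2.39 CPM, the 5 larger libraries of space with gravity at least 2.71 CPM, and 1 library, replicate 1 without nanoceria, was at 61.6 CPM. Pooled counts were 1438 against 33, a ratio per effective library size of 20.7 (exact 95% interval 14.7 to 30.2, counting error only), or 9.91 (6.96 to 14.6) without the library of 955 counts.

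The log2 fold change of Chek1 was 3.89 ± 0.91 (adjusted p = 0.0138), and 2.34 ± 0.88 in space without gravity (adjusted p = 0.113), where the counts were 118, 3 and 6 and 9, 13 and 30. In that regime replicate 1 without nanoceria held 118 counts and no other library more than 30, and without that replicate the value was 0.68. The call in space with gravity was lost without replicate 1 of the nanoceria group (2.97, adjusted p = 0.0782) and in a fit that held the dominant share as a term (1.17, adjusted p = 0.856); the share moved with the regime, and its part in the Chek1 difference was not tested beyond this fit.

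The other damage signalling genes all had positive log2 fold changes in both comparisons, and none passed the test. Trp53bp1, whose protein marks breaks for end joining, was at 1.82 ± 0.62 and 1.27 ± 0.60 (adjusted p = 0.0571 and 0.199) in space with and without gravity. On the opposite strand it shares 15.0% of its exon bases with Tubgcp4, and the use of strand in counting is not given in the sources used here. Atm, the sensor kinase of double-strand breaks, was at 0.82 ± 0.60 and 1.29 ± 0.59. Its highest library, replicate 2 of space without gravity with nanoceria, had 56.1 CPM, and the other 16 had at most 16.4 CPM. Atr differed by 0.41 ± 0.44 and 0.64 ± 0.43, and Chek2, the effector of ATM, by 0.27 ± 0.45 and 0.08 ± 0.44. With DESeq2 size factors, 4 of these 5 genes were positive in each comparison, and without replicate 1 of space with gravity and nanoceria 3 of 5 were in that regime.

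Homologous recombination held the gene that passed as higher in space without gravity. Brca1 (chromosome 11, 101488764 to 101551955, minus strand) had raw counts of 5, 20 and 12 without and 133, 9 and 26 with nanoceria there, 25, 15 and 2 and 18, 7 and 0 in space with gravity, and 7, 3 and 2 and 0, 2 and 0 on land. In CPM the values of space without gravity were 1.0, 3.36 and 2.14 and 19.4, 3.34 and 4.4, and those of land 0.983, 0.767 and 0.657 and 0, 0.401 and 0. All 6 libraries of space without gravity lay above all 6 of land, which happened for 1.23% of all genes in that direction. The gap was narrow, at 1.003 CPM (5 counts) against 0.983 CPM (7 counts). Pooled counts were 205 against 14, a ratio of 11.4 (exact 95% interval 6.62 to 21.1), and without the library of 133 counts 72 against 14, a ratio of 5.08 (2.84 to 9.75). The fitted log2 fold change was 3.48 ± 0.68 (adjusted p = 0.0141). It depends on the prior count, since the land units with nanoceria held 2 counts in all. Without the library of 133 counts, replicate 1 with nanoceria, it was 2.90 and missed the threshold (adjusted p = 0.0509), and the dominant share as a covariate gave 3.27 (adjusted p = 0.0898). In space with gravity against land Brca1 was at 1.57, short of the threshold, and ran from 1.38 to 3.22 with 1 library left out.

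Brca2, which acts with Brca1 in repair from a sister copy, was at 5.27, 11.7 and 20.2 CPM (lowest, median and highest) in the 5 larger libraries of space with gravity and at 2.4, 5.02 and 8.44 on land. Its log2 fold changes were 1.30 ± 0.44 (adjusted p = 0.0567) and 0.62 ± 0.44 (adjusted p = 0.392) in space with and without gravity. Rad50 and Nbn, subunits of the complex that senses broken ends, were at 0.86 ± 0.50 and 0.09 ± 0.49 in space with gravity and at 0.72 ± 0.49 and 0.15 ± 0.48 without it. The highest Rad50 value, 116 CPM, was in replicate 3 of space with gravity without nanoceria, and the other 16 libraries had at most 41.9 CPM. All 4 genes of this route had positive values in both comparisons, and 3 of 4 with DESeq2 size factors.

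In end joining no gene passed. All 4 tested genes had positive values in both comparisons, but in space with gravity 1 of 4 was positive, with a median of -0.12, without replicate 1 of the nanoceria group. Xrcc5 (chromosome 1, 72307421 to 72394952), which encodes Ku80, was at 33.5, 14.6 and 12.7 CPM without and 20.4, 5.2 and 9.31 CPM with nanoceria in space without gravity, and at 3.65, 3.84 and 8.87 and 4.07, 5.41 and 8.46 on land. The ranges overlapped through replicate 2 with nanoceria. The log2 fold change was 1.44 ± 0.45 (adjusted p = 0.0667), and 0.72 ± 0.46 in space with gravity. Its partner Xrcc6, which encodes Ku70, was at 0.07 ± 0.75 in space with gravity and 0.45 ± 0.74 in space without gravity, and a land library, replicate 1 with nanoceria, stood at 185 CPM against at most 41.9 in the other 16. Prkdc, which encodes DNA-PKcs, was at 1.14 ± 0.66 in space with gravity and 1.48 ± 0.65 in space without gravity, and Lig4, the ligase of the route, at 0.88 ± 0.69 and 0.17 ± 0.68 in the same order.

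Nucleotide excision repair and base excision repair showed no gene past the test. Ercc1, a subunit of the nuclease that cuts beside a lesion, was at -0.96 ± 0.48 and -0.71 ± 0.46 in space with and without gravity, and Xpc, the lesion sensor, at 0.40 ± 0.63 and 0.72 ± 0.61. Ddb2, a sensor of ultraviolet damage grouped here with the p53 targets, had at most 16 counts in a library, in replicate 3 of space without gravity and without nanoceria, and none in 8 of the 17 larger libraries. On the opposite strand it shares 23.8% of its exon bases with Acp2. Xrcc1, the scaffold of nick repair, was at -0.42 ± 0.43 and -0.50 ± 0.42. Parp1, which marks nicks with ADP-ribose chains, gave 0.21 ± 0.50 in space without gravity, and its value in space with gravity was under 0.01 in size (adjusted p = 0.998). Ogg1, the glycosylase of oxidised guanine, had at most 20 counts in a library and was at -0.81 ± 0.60 and -0.34 ± 0.58.

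Over the 17 damage signalling and repair genes other than Ddb2 and Xpc, the median log2 fold change was 0.72 in space with gravity, with 13 above 0, and 0.62 in space without gravity, with 14 above 0. Over all genes tested the medians were -0.04 and -0.02, with 48.4% and 49% above 0. The 18 tested p53 targets, counted with Mdm2, Xpc and all the Gadd45 genes, had medians of 0.09 and -0.00, with 10 and 9 above 0. DESeq2 size factors shifted the median of all genes to -0.39 and -0.28; the repair and signalling medians were then 0.37 and 0.34, with 10 of 17 above 0 in each, and the p53 target medians -0.22 and -0.26, with 7 of 18. Under that scaling 28.7% of all calls in space with gravity were higher, against 51.7% under TMM, and 32.1% against 53.5% in space without gravity. Without replicate 1 of space with gravity and nanoceria, the repair and signalling median in that comparison was -0.06, with 8 of 17 above 0.

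These values moved with gene length. All genes tested, split into 3 bins by exon length, had median log2 fold changes of -0.40, -0.01 and 0.28 from short to long in space with gravity, and -0.24, -0.02 and 0.18 in space without gravity. The 14, 12 and 10 members in those bins had medians of -0.15, 0.17 and 0.98, and of -0.16, 0.19 and 0.70. The long bin, from 5474 bases, held Atm, Atr, Trp53bp1, Brca1, Brca2, Xpc, Xrcc1 and Prkdc of the repair and signalling genes, and Zmat3 and Trp53inp1 of the p53 targets. With a length trend fitted in each library as an offset, the repair and signalling medians were 0.37 and 0.23, with 11 and 14 of 17 above 0, and the calls of Chek1, Brca1 and Gadd45g remained.

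**Figure D4:**
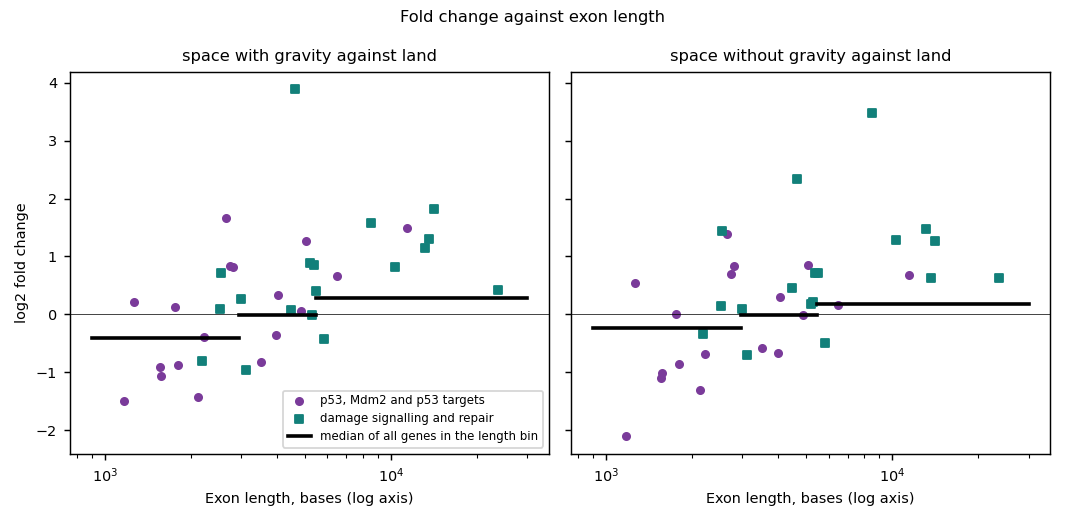
Log2 fold change against exon length in bases (log axis) for the 36 tested genes, in space with gravity against land (left) and space without gravity against land (right); circles are p53, Mdm2 and p53 targets, squares are damage signalling and repair genes, and black lines are the medians of all genes tested in each length bin. Medians of all genes run from -0.40 to 0.28 on the left and from -0.24 to 0.18 on the right, and most squares lie above 0.

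The question of gravity alone was addressed within space, without gravity against with gravity. None of the 36 genes passed the test, and none of the 11558 did (0%); at an unadjusted p under 0.05 the count was 1 of 36, against 5.85% of all genes (2.09% higher), and DESeq2 called 11 genes, none of them a member. The 1 gene was Brca1, at 1.91 ± 0.61 (adjusted p = 0.632). In space with gravity it had 25, 15 and 2 counts without and 18, 7 and 0 with nanoceria, and the ranges in CPM overlapped. Chek1 was at -1.55 ± 0.80 and Zmat3 at -0.81 ± 0.51, with adjusted p of 0.893 and 0.929. With 1 library left out Chek1 ran from -3.25 (without replicate 1 of the untreated group without gravity) to -0.60 (without replicate 1 of the nanoceria group with gravity), and Zmat3 from -1.05 to -0.46. Trp53 was at -0.04 ± 0.38, Mdm2 at -0.41 ± 0.67 and Cdkn1a at -0.29 ± 0.40, and the median over the members was -0.05, beside 0.04 over all genes; 17 of 36 were above 0, against 52.9% of all genes.

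Nanoceria, averaged over the 3 regimes, gave no call among the members or among all genes (0%). At an unadjusted p under 0.05 there were 5 of 36, against 6.54% of all genes, with 4 higher (2.86% of all genes) and 1 lower (3.69%), and 16 of 36 were above 0 (47.3% of all genes); DESeq2 called 1 gene, not a member. Prkdc was at 82.4, 5.87 and 42.4 CPM without and 5.39, 1.48 and 2.37 CPM with nanoceria in space without gravity, at 8.64, 17.1 and 3.29 and 18.2, 1.43 and 0 in space with gravity, and at 5.34, 4.35 and 6.24 and 2.59, 2.6 and 4.88 on land. The averaged log2 fold change was -1.52 ± 0.54 (adjusted p = 0.729), and the highest values were 2 units without nanoceria and without gravity. It ran from -2.42 to -1.24 with 1 library left out. Bbc3 was at 1.0, 1.68 and 1.6 CPM without and 0.582, 1.11 and 14.1 CPM with nanoceria in space without gravity, at 0.774, 1.55 and 1.48 and 1.35, 10.0 and 0 in space with gravity, and at 5.34, 2.3 and 8.22 and 3.7, 16.2 and 6.84 on land. It differed by 1.56 ± 0.57 (adjusted p = 0.752), and its 3 highest libraries were 1 nanoceria unit from each regime. Without the one from space without gravity, replicate 3, the value was 0.65, and without the one from space with gravity, replicate 2, 0.91. Gadd45b, with the values given above, differed by 0.85 ± 0.33 (adjusted p = 0.752). Xrcc6 at 1.49 ± 0.62 and Trp53bp1 at 1.18 ± 0.49 made up the 5. Trp53 was at 0.26 ± 0.31, Mdm2 at -0.24 ± 0.54, Cdkn1a at 0.07 ± 0.32, Gadd45a at -0.26 ± 0.50 and Ogg1, the oxidised base glycosylase, at -0.68 ± 0.49.

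**Figure D5:**
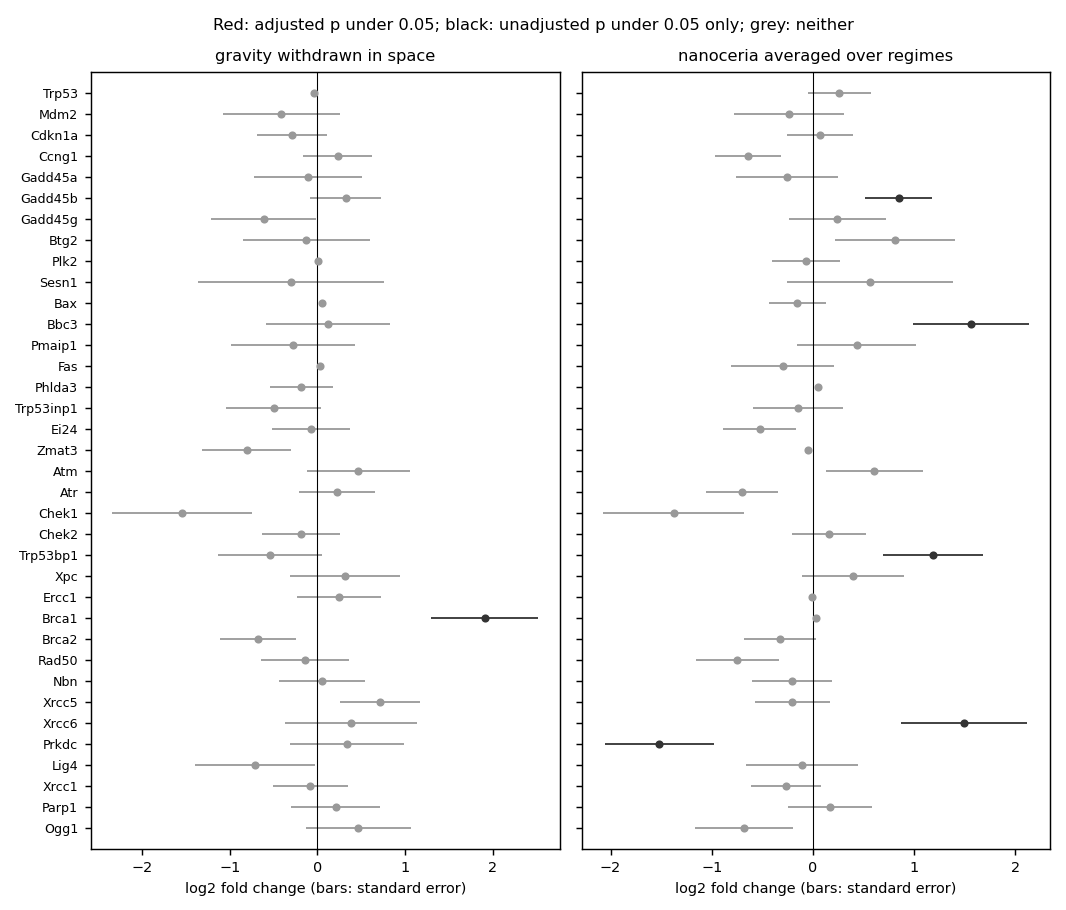
Log2 fold change of the 36 tested genes for gravity withdrawn in space (left) and for nanoceria averaged over the 3 regimes (right), with standard errors of the fit as bars; no bar is drawn for values within 0.05 of 0. No gene passed an adjusted p of 0.05, and Brca1 on the left and Prkdc, Bbc3, Gadd45b, Xrcc6 and Trp53bp1 on the right had an unadjusted p under 0.05.

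Whether the nanoceria difference itself varied between regimes was tested with an F-test of the 2 interaction terms. No gene passed (0%), and 3 of 36 members had an unadjusted p under 0.05, against 6.14% of all genes; DESeq2 called 8 genes, none of them a member. Pmaip1 had the smallest p (adjusted p = 0.719). It was at 1.0, 4.03 and 3.74 CPM without and 28.5, 128 and 3.55 CPM with nanoceria in space without gravity, at 18, 25.4 and 21.7 and 19.7, 1.12 and 11.9 in space with gravity, and at 8.14, 15.1 and 3.94 and 1.11, 3.61 and 2.6 on land. So 2 of 3 nanoceria units were above the untreated ones in space without gravity, and the treated land units were below the lowest untreated one. Brca1 came next (adjusted p = 0.791), and Prkdc was the other.

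Genes of the same pathways outside the list were read from wider lists. In space with gravity against land, where 14% of all genes passed, no list of pathway genes or proliferation markers had a share of calls far above that. There, 2 of 17 tested checkpoint genes beyond the members passed: Rnf168, a ubiquitin ligase of the break response, at 1.59 ± 0.41 (adjusted p = 0.0198), and H2afx, the histone variant marked at breaks, at -1.26 ± 0.41 (adjusted p = 0.0488). In base excision and single-strand break repair 1 of 13 passed, Aptx, which clears aborted ligation ends, at 1.93 ± 0.53 (adjusted p = 0.0246). Homologous recombination had 1 of 17, Rad54b at 3.31 ± 1.03. End joining had 1 of 9, the polymerase gene Poll at 2.61 ± 0.70, and mismatch repair 1 of 7, Mlh3 at 2.24 ± 0.74 (adjusted p = 0.05 when rounded). No gene passed among 19 of nucleotide excision repair and 7 of the Fanconi anaemia pathway. Of 32 further p53 regulators and targets 3 passed: Bcl2l1, a survival gene, at 2.18 ± 0.63, Bak1, a death effector and partner of Bax, at -1.98 ± 0.43, and Ddit4, an inhibitor of growth signalling, at -1.43 ± 0.43.

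Of 17 proliferation markers 2 passed in space with gravity, a share under the 14% of all genes, and in opposite directions although both encode subunits of ribonucleotide reductase, the enzyme that makes DNA building blocks. Rrm2 was at -2.65 ± 0.57 (adjusted p = 0.00994) and Rrm1 at 1.67 ± 0.49 (adjusted p = 0.0322). Of the cell type markers, 1 of 6 tested myoblast markers passed as lower, Vim at -1.39. So did 1 of 3 tested non-muscle markers, Bglap at -2.19, or -0.95 without replicate 3 of land with nanoceria. All of these calls were lost with the dominant share as a covariate. That share moved with the regime, and the fit called 1 of 11558 genes, so the loss is not particular to these genes. All but the calls of Rrm2, Bak1, Rnf168, Poll and Bcl2l1 were also lost under at least 1 other alternative beside leaving out a library. With 1 of the 18 libraries left out in turn, H2afx missed the threshold in 17 fits, Bglap in 16, Mlh3 in 14, Ddit4 in 13, Rad54b in 11, Rrm1 in 8, Bcl2l1 and Vim in 7, Aptx in 5, Poll in 4, Rnf168 in 2 and Bak1 in 1. Rrm2 passed in all 18. Rrm1 was at 1.05 without replicate 2 of space with gravity and nanoceria, and Mlh3 at 1.49 without replicate 1 of that group. In space without gravity against land, in gravity withdrawn and in nanoceria, none of the genes of these lists passed.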

How the data were processed

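Polyadenylated RNA was sequenced from 18 experiment units, 3 in each of 6 groups, and the deposited values are whole-number counts per gene, not normalized. Per the submitters' processing notes the authors used CASAVA, Trimmomatic 0.36.29, STAR and Subread featureCounts with GRCm38.p6; the use of strand and of reads with several matches is not given in the sources used here. The 18 small RNA samples were not analysed here. Gene symbols came from GENCODE M21, and promoter sequences from RefSeq.

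Counts were fitted with edgeR 4.0.16 (R 4.3.3, limma 3.58.1), robust quasi-likelihood, TMM scaling and the default expression filter, with 1 mean per group over all 18 libraries (12 residual degrees of freedom) and Benjamini-Hochberg adjustment at 0.05. Contrasts averaged the nanoceria levels or the regimes. DESeq2 1.42.0 was an alternative. Standard errors were taken from the F statistic. Pooled ratios have exact 95% intervals, and 3 counts set the floor. Intervals and floors cover counting error only.

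The named genes were Trp53, Mdm2, Cdkn1a and the Gadd45 genes, those past the threshold or with the smallest p in each comparison, and up to 4 called genes per wider list; other members are named by role with their values known. The members and lists were chosen with earlier results of these data known.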

Additional observations from a re-analysis of the deposited data

How the results depend on the processing

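The calls depended on scaling, on single libraries and on the share of counts in the 6 dominant genes; apart from values stated as such, the causes were not tested. In space with gravity against land, genes called numbered 2691 with the DESeq2 test, 1 with the dominant share as a covariate and 1072 with only the libraries compared, and 459 to 1614 when 1 library was left out (459 without replicate 1 of space with gravity and nanoceria). Members called there numbered 5 of 36 with DESeq2 size factors (2186 of 11558 genes) and 5 of 36 with the DESeq2 test (2691 of 11558). In both, Chek1 was higher and Phlda3, Bax, Ccng1 and Gadd45g were lower. Of all genes, 628 were called higher and 1558 lower with size factors, and 824 higher and 1867 lower with the DESeq2 test. Members called numbered 4 of 37 without a filter (2242 of 25194 genes) and 4 of 24 with a mean of at least 50 counts (1237 of 5850). Without a filter all 4 were higher (Trp53bp1, Zmat3, Chek1 and Pmaip1), where 1470 of all genes were called higher and 772 lower. With a mean of at least 50 counts, Chek1 was higher and Phlda3, Bax and Ccng1 lower (536 of all genes higher, 701 lower). The covariate gave 0 of 36 (1 of 11558 genes), and only the libraries compared gave 2 of 35 (1072 of 11106). With 1 library left out, 0 to 3 members were called. In space without gravity against land, genes called numbered 1524 with the DESeq2 test, 1466 without a filter, 6 with the covariate and 387 with only the libraries compared, and 82 to 713 with 1 library left out (82 without replicate 1 of land without nanoceria). Members called there numbered 4 of 36 with size factors (813 of 11558 genes) and 6 of 36 with the DESeq2 test (1524 of 11558). In both, Brca1 was higher and the others were lower. Of all genes, 261 were called higher and 552 lower with size factors, and 508 higher and 1016 lower with the DESeq2 test. The covariate gave 0 of 36 (6 of 11558 genes), and only the libraries compared gave 1 of 36 (387 of 10705). With 1 library left out, 0 to 3 members were called (0 without replicate 1 of space without gravity and with nanoceria).

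For gravity withdrawn, the DESeq2 test called 11 genes of 11558 tested and the fit without a filter 229 of 25194. For nanoceria averaged these were 1 and 214, with 2 of 37 members (Xrcc6 and Prkdc) without a filter. For nanoceria by regime they were 8 and 551, with 2 of 37 members (Prkdc and Pmaip1) without a filter. Leaving out 1 library gave 0 calls in these 3 comparisons.

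With the covariate, the log2 fold changes in space with gravity became 0.20 for Cdkn1a, -0.079 for Mdm2, 0.10 for Phlda3 and -0.86 for Gadd45a. Gadd45a there was -0.16 with size factors, -0.16 with DESeq2 and -0.0082 with a mean of at least 50 counts. Leaving out 1 library moved it from -0.11 (without replicate 1 of land without nanoceria) to 0.95 (without replicate 3 of the same group). Gadd45a in space without gravity was -0.22 with size factors, -0.22 with DESeq2, -0.14 with a mean of at least 50 counts, -0.42 with the covariate and -0.0073 with only the libraries compared. Leaving out 1 library moved it from -0.22 to 0.84, through the same land replicates. Gadd45b in space with gravity was -0.14 with size factors, -0.13 with DESeq2 and -0.041 with a mean of at least 50 counts, and -0.20 to 0.46 with 1 library left out.

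No paired analysis was possible because nothing in the labels links units across groups; replicates were numbered in sample order. Precision for Chek1, Brca1, Sesn1, Ogg1 and Ddb2 is limited by counts near 0, and in the smallest library values under 35.7 CPM rest on fewer than 3 counts.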
